A study of Mus musculus with 14 samples.

Results

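The tumorsphere transcriptome of a kinase-dead FAK line, FAK-R454, was compared with that of the parental KMF line from which it descends, gene by gene and in both directions. The table holds 35275 genes, all of which belong to this comparison, and 11896 of them had a mean above 1 FPKM (fragments scaled to transcript length and library depth) in at least 1 of the lines and were tested. KMF cells are mouse ovarian tumor cells of C57Bl6 background obtained by passaging ID8 cells in mice, and 3 KMF samples were sequenced. FAK-R454 denotes KT13, a FAK-/- KMF clone made by CRISPR/Cas9 cutting of Ptk2, in which GFP-tagged FAK carrying the catalytically inactive R454 substitution was put back, and it has 2 samples. The series holds 14 samples of 5 lines, the other lines being KT13 itself (FAK KO), KT13 with GFP-FAK wildtype (FAK-WT) and KT13 with active β-catenin (β-catenin ΔGSK). All lines grew for 5 days without anchorage as tumorspheres in PromoCell XF medium, and no drug was given.

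Several features limit what the comparison can separate. KT13 is 1 clone, the GFP-FAK-R454 cassette was delivered by lentivirus into cells that were selected and enriched, and the parental cells went through none of these steps. Loss of endogenous FAK, clonal origin, transduction and kinase inactivity therefore cannot be told apart in the difference between FAK-R454 and KMF. The KMF RNA was collected at various passages, and whether the lines were sequenced together is not given in the sources used here. FAK KO and FAK-WT values are given for some genes and lists only. A change given without them may be shared by the other lines made from KT13.

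FAK, encoded by Ptk2, is a cytoplasmic tyrosine kinase that joins integrins and growth factor receptors to Src-family kinases, paxillin and p130Cas at matrix adhesions. It acts both as an enzyme and as a scaffold, so a kinase-dead protein can still bind its partners. FAK signaling is known for its part in cell adhesion, motility, matrix assembly and survival without anchorage, and in ovarian tumor cells it has been studied with the β-catenin and Myc pathways, aldehyde dehydrogenase activity and resistance to platinum drugs.

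Between 27772281 and 35289859 fragments could be recovered per library. Log2 values correlated at r = 0.9962 between the FAK-R454 samples and between 0.949 and 0.9512 across the lines, over genes, which are not independent replicates. Ptk2 (chr15:73205105-73423191, minus strand) measured 59.2 and 65.5 FPKM in FAK-R454 and 24.8, 24.2 and 23.9 FPKM in KMF. The FAK-R454 values lay above all KMF values, with a log2 fold change of 1.36 ± 0.06 (SE; limma adjusted p = 3.4e-05). In the knockout clone itself Ptk2 averaged 19 ± 1.45 FPKM, and with wildtype FAK put back 43.4 ± 1.76 FPKM (SD, n = 3 each). Gene-level FPKM joins fragments of the cassette and of the endogenous gene and holds no allele information, so it checks re-expression and not the substitution.

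The labelled cell type was checked with marker genes. Wt1, a transcription factor of mesothelium and ovarian surface epithelium, measured 111 and 117 FPKM in FAK-R454 and 98.5, 97.9 and 71.7 in KMF. Msln lay between 61.9 and 74.6 FPKM and Krt8 between 305 and 379 FPKM in the 5 libraries, while Pax8, Epcam and Krt7 stayed below 1 FPKM in each. The leukocyte genes Ptprc and Cd3e were at 0 in all 5 libraries, and the summed level of the 18 leukocyte markers in the table was 10 and 11.1 FPKM in FAK-R454 against 11.1 to 11.8 in KMF, with 6 of the 18 at 0 throughout. The 10 endothelial markers summed to 29.0 and 29.6 FPKM in FAK-R454 and 37.1 to 40.4 in KMF, and Cdh5 stayed at or below 0.0432 FPKM. The 13 fibroblast markers summed to 239 and 213 FPKM in FAK-R454 and 134 to 201 in KMF, with Thy1 at or below 0.0198, Acta2 at or below 0.142 and Col1a2 at or below 0.0159 FPKM. In bulk RNA, fewer cells of a type and less RNA per cell cannot be told apart.

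A gene was called where limma on log2(FPKM + 0.1) gave an adjusted p below 0.05, the change was at least 2-fold and the mean of the higher line exceeded 1 FPKM. Where a gene is said to have risen or fallen by less than 2-fold, only its adjusted p passed. Raising the pseudocount from 0.1 to 1 took 41 of 159 called genes, those named here and the called members of the gene lists, below 2-fold, and such genes are marked where their change is given. By this rule 509 genes, 4.28% of those tested, were higher in FAK-R454 and 296 genes, 2.49%, were lower. Counts of calls in the gene lists below are to be read against these shares. The median log2 fold change of all genes tested was 0.009, and 93.1% of them changed by less than 1 on the log2 scale. Among the calls, 9 rose and 7 fell by 4 or more on the log2 scale, and 356 and 213 changed by between 1 and 2. In all 805 called genes every FAK-R454 value lay on 1 side of every KMF value, and so did those of 66.8% of all genes tested. With 2 samples against 3, an exact two-sided permutation test has 10 arrangements and cannot give a p below 0.2, so all p-values come from the limma fit across genes, and they measure the spread between these samples.

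**Figure D1:**
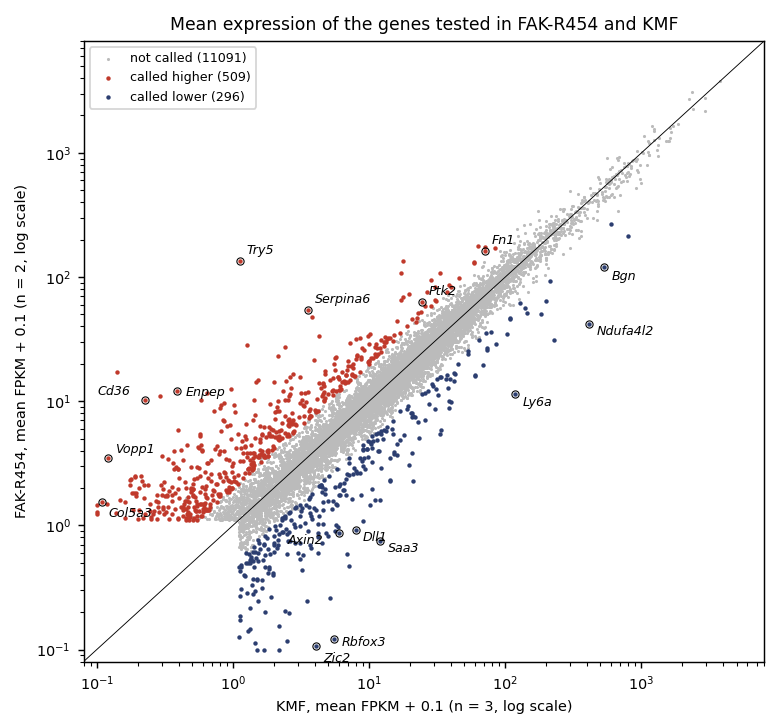
Mean FPKM + 0.1 of each gene tested in KMF (horizontal, n = 3) and FAK-R454 (vertical, n = 2), both on log scales, with the line of equality. The 509 genes called higher are red and the 296 called lower are blue, and the labelled genes are named in the text.

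The 12 largest increases mixed enzymes, surface proteins and matrix. The trypsin genes Try5 and Try4, neighbouring near-identical copies on chromosome 6 between which reads may be shared, led the list. Try5 measured 138 and 132 FPKM in FAK-R454 and 0.773, 0.939 and 1.34 FPKM in KMF (log2 fold change 6.95 ± 0.20, limma adjusted p = 1.1e-05). Try4 had 813 fragments in FAK-R454 and 3 in KMF, a ratio of 421 with a counting interval of 143 to 2040 (exact binomial, 95%). Both trypsins were higher still in FAK KO, at 482 ± 49.8 FPKM for Try5 and 82.4 ± 5.56 FPKM for Try4 (SD, n = 3), and in β-catenin ΔGSK both were listed at 0.

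Cd36, a fatty acid and thrombospondin receptor, measured 9.32 and 11 FPKM in FAK-R454 against 0.0579, 0.0804 and 0.238 FPKM in KMF (log2 fold change 5.58 ± 0.34). Enpep, the membrane aminopeptidase A that cleaves angiotensin, stood at 12.3 and 11.7 FPKM against 0.329, 0.300 and 0.237 (4.97 ± 0.15). The groups were far apart for both genes. Serpina6, the corticosteroid-binding globulin, measured 54.7 and 53 FPKM against 3.62, 3.53 and 3.25 (3.92 ± 0.07). Its replicates differed little beside the gap between lines. Also among the 12 were Speer4a, of a family with similar copies, Vopp1, Fam49a, Sema3g, Aldh1l1 and Col5a3, with log2 fold changes from 3.83 to 5.24. The limma adjusted p of the genes named lay between 6.3e-06 and 0.00019. Enpep, Vopp1 and Fam49a averaged 9.89, 2.89 and 9.55 FPKM in FAK KO and 14.8, 3.08 and 11.1 FPKM in FAK-WT. They were thus high in these lines made from KT13 as well. Speer4a was low in FAK-WT, at 0.159 FPKM, and Col5a3 in FAK KO, at 0.147 FPKM.

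Among genes with a symbol other than a clone or predicted-gene name, the 12 largest decreases included the developmental transcription factor genes Zic2, Foxf1 and Gata5. Rbfox3, the neuronal splicing factor known as NeuN, measured 0.0229 and 0.0200 FPKM in FAK-R454 and 5.88, 5.68 and 4.84 FPKM in KMF, and fell by 5.51 on the log2 scale (SE 0.15). Zic2, a zinc finger factor of neural development, had 1 fragment in FAK-R454 and 880 in KMF, a ratio of 567 with a counting interval of 101 to 22400. The forkhead gene Foxf1 (chr8:121084386-121088144, plus strand) measured 0.134 and 0.157 FPKM against 3.80, 4.03 and 2.44 FPKM. Its divergent neighbour Fendrr, a long noncoding RNA (chr8:121054882-121083110, minus strand), had 2 fragments against 299. Gata5, a GATA factor of endoderm and heart, stood at 0.0769 and 0.135 FPKM against 2.55, 2.25 and 2.13.

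The other large decreases included secreted and metabolic genes. Saa3, an acute phase apolipoprotein, measured 0.814 and 0.476 FPKM in FAK-R454 and 9.92, 16.1 and 9.98 FPKM in KMF (log2 fold change -4.02 ± 0.27). Vnn1, a pantetheinase, measured 0.179 and 0.144 FPKM against 4.71, 5.16 and 5.23 (-4.30 ± 0.13). The KMF values of these genes exceeded the FAK-R454 values several-fold in every library. Limch1, Rbp7, Npy, Proser2 and Col5a2 completed these 12 with log2 fold changes from -4.41 to -3.54, and the limma adjusted p of the 12 lay between 1.1e-05 and 0.00033. Npy rested on 2 fragments in FAK-R454 and 111 in KMF. The genes RP24-72G22.2, Gm9312 and 2610035F20Rik, which have no descriptive symbol, were left out of these 12 and were listed at 0 in both FAK-R454 samples and at means of 2.08, 1.59 and 1.41 FPKM in KMF. Zic2 was at 0 in FAK KO and at 0.0633 ± 0.0376 FPKM in FAK-WT, and Rbfox3 at 0.00406 and 0.0801 FPKM on average, so these genes were low in each line made from KT13.

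**Figure D2:**
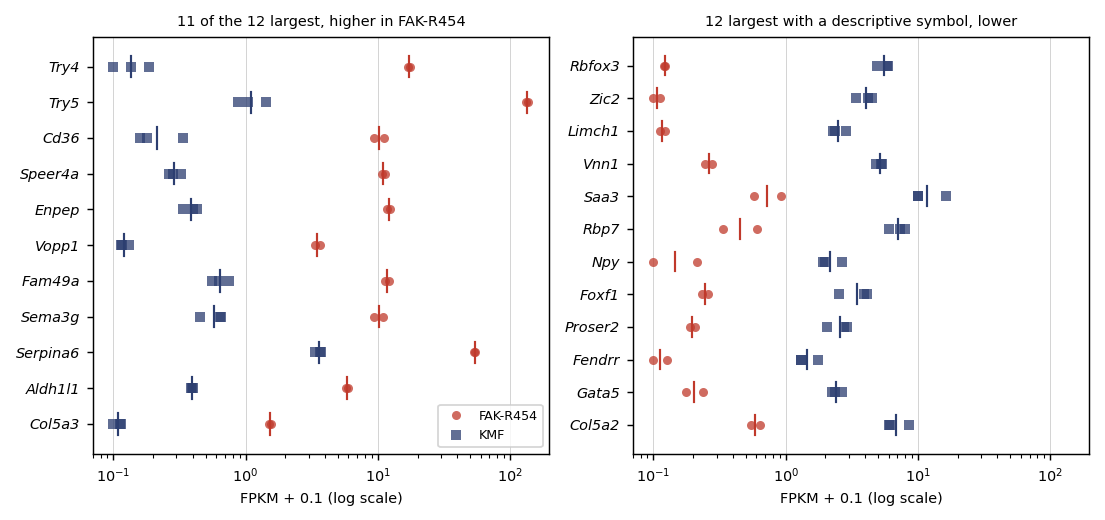
FPKM + 0.1 on a log scale for 11 of the 12 largest increases (left) and the 12 largest decreases (right) among genes with a descriptive symbol, with 1 point per library and a bar at the geometric mean of each line. The 2 FAK-R454 points (red) and the 3 KMF points (blue) do not overlap for any of these 23 genes.

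Genes of the extracellular matrix changed in number and in both directions. Of 18 collagen genes tested, 6 were called higher and 1 lower, with a median log2 fold change of 0.37 against 0.009 for all genes. Col1a1, a chain of type I collagen, measured 9.04 and 11.2 FPKM in FAK-R454 and 2.5, 2.30 and 2.58 FPKM in KMF (1.99 ± 0.11, limma adjusted p = 6.3e-05). Its partner chain gene Col1a2 was near 0 in every library. Col18a1, the source of endostatin, measured 9.74 and 10.5 FPKM against 1.37, 1.27 and 1.37 FPKM (2.83 ± 0.09). Col5a2, a chain of type V collagen, went the other way, with 0.538 and 0.443 FPKM against 6.10, 5.97 and 8.39 FPKM (-3.54 ± 0.17). The chain genes of type V collagen thus split, since Col5a1 rose from 9.46, 9.20 and 10.4 FPKM in KMF to 20.3 and 21.2 FPKM in FAK-R454 and Col5a3 also rose. Col27a1, a fibrillar collagen, rose by 3.22 and Col23a1, a transmembrane one, by 1.12. The Col23a1 call was lost without FAK-R454 replicate 1 or 2 (adjusted p = 0.052 and 0.066), and its log2 fold change was 0.94 without KMF replicate 3 and 0.70 with a pseudocount of 1, and 0.97 after each chromosome's median was subtracted from its genes. The basement membrane collagens Col4a1, Col4a5 and Col4a6 had log2 fold changes of -0.02, -0.06 and -0.04 and did not pass the test.

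Of 25 genes for fibronectin, elastic fibre and matricellular proteins, 9 were called higher and 3 lower, with a median of 0.35. Fn1, fibronectin, measured 155 and 170 FPKM in FAK-R454 and 64.2, 72.8 and 75 FPKM in KMF (1.2 ± 0.08). Eln, elastin, measured 4.38 and 3.95 FPKM against 1.13, 1.14 and 1.14 FPKM (1.78 ± 0.10), and the elastic fibre glycoprotein gene Emilin1 measured 6.80 and 6.23 against 1.00, 1.07 and 1.40 (2.41 ± 0.15). The crosslinking enzyme genes Lox, Loxl1 and Loxl3 were called higher, at log2 fold changes of 1.24, 1.16 and 2.09, while Loxl4 was called lower at -1.38. Tnc, tenascin C, and Vcan, versican, rose by 1.02 and 1.36, or by 0.88 and 0.65 with a pseudocount of 1. Tnc also fell short of 2-fold without FAK-R454 replicate 2 (0.98), without KMF replicate 2 (0.96) and after subtraction of chromosome medians (0.95). That subtraction took Lox to 0.87, and 1 fit of all 5 lines took it to an adjusted p of 0.072. The Loxl1 call was lost without FAK-R454 replicate 1 or 2 (adjusted p = 0.056 and 0.061) and without KMF replicate 3, where the change was 0.91. The proteoglycan genes also split. Dcn, decorin, measured 114 and 102 FPKM against 30.5, 29.6 and 39.0 FPKM (1.71 ± 0.13), whereas Bgn, biglycan, measured 123 and 117 against 525, 509 and 557 FPKM (-2.15 ± 0.07). Fbn1, the fibrillin of microfibrils, fell by 2.31 (SE 0.16). Col1a1 and Dcn are also the 2 genes called higher among 6 tested fibroblast markers, whose median was 0.06. At an adjusted p below 0.05 alone, 2 of the 6 rose and 2 fell. Dcn, at 114 and 102 FPKM, made up much of the summed fibroblast level of 239 and 213 FPKM in FAK-R454. The part of cell composition in these changes was not tested.

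Among 24 matrix proteases and their inhibitors, 7 were called higher and none lower, at a median of 0.30. Timp4, a metalloproteinase inhibitor, measured 13 and 15.5 FPKM in FAK-R454 and 1.36, 1.44 and 1.32 FPKM in KMF (3.28 ± 0.10, limma adjusted p = 1.3e-05). The collagenase gene Mmp13 measured 7.59 and 6.24 FPKM against 0.913, 0.576 and 0.763 FPKM (3.06 ± 0.19). Mmp10, Mmp15, Adamts1, Adamts4 and Adamts9 were called higher as well, from 1.03 to 2.43, of which Mmp10, Adamts4 and Adamts1 had 0.90, 0.95 and 0.62 with a pseudocount of 1, and Adamts1 0.94 without KMF replicate 1. Timp3 fell by 0.85 at an adjusted p of 0.00025 without reaching 2-fold, and Timp1 had a log2 fold change of -0.05. Among 10 laminin and basement membrane genes, 2 were called lower, Fbln1 (fibulin, 3.01 and 2.97 FPKM against 20.6, 20.2 and 18.2) and Lamb3 (0.801 and 0.957 FPKM against 5.67, 4.84 and 7.05). The laminin genes Lamb1 and Lama5 did not pass the test.

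Among receptors for this matrix, of 12 integrin genes, 2 were called higher and 1 lower. Itga5, the fibronectin receptor subunit, measured 60.1 and 57.2 FPKM in FAK-R454 and 28.7, 27.5 and 29.3 FPKM in KMF (1.04 ± 0.05, or 0.93 after subtraction of chromosome medians), and Itgb8, which activates latent TGF-β, measured 9.12 and 10.3 against 3.01, 2.91 and 4.04 FPKM (1.54 ± 0.15). Itga10, a collagen receptor subunit, measured 5.18 and 5.52 FPKM against 31.4, 28.7 and 38.8 FPKM (-2.59 ± 0.13). Itgb1, the partner of Itga5 and Itga10, fell by 0.25 (adjusted p = 0.016). In the list of 29 FAK partners, 3 genes were called higher and none lower at a median of 0.11. They were Ptk2 itself, the Src-family kinase gene Fyn, at 6.78 and 7.13 FPKM against 2.58, 2.57 and 2.31 FPKM (1.45 ± 0.09), and Ptk2b, which encodes the FAK relative Pyk2, at 12.4 and 12.1 FPKM against 6.47, 6.10 and 5.03 FPKM (1.06 ± 0.11). Without KMF replicate 3 the Ptk2b change was 0.95, and with a pseudocount of 1 it was 0.96 and after subtraction of chromosome medians 0.95, each short of 2-fold. Src, Pxn, Bcar1 and Vcl had log2 fold changes of 0.28, 0.22, -0.12 and -0.19.

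Wnt signaling reaches the nucleus through β-catenin and TCF factors, and Axin2, Rnf43, Notum and Tcf7 are textbook targets that also feed back on it. Of 11 targets and feedback genes tested, 3 were called lower and 2 higher, at a median of -0.41. Axin2 measured 0.761 and 0.786 FPKM in FAK-R454 and 6.11, 6 and 5.54 FPKM in KMF (-2.78 ± 0.09, limma adjusted p = 1.5e-05). Rnf43, a ligase that removes Wnt receptors, measured 2.13 and 2.09 FPKM against 6.52, 7.38 and 5.58 FPKM (-1.57 ± 0.12). Tcf7 measured 10.6 and 12.4 FPKM against 27.5, 27.6 and 22.1 FPKM (-1.15 ± 0.12). The groups did not overlap for any of the 3, as for all called genes and for 66.8% of all genes tested. Lgr5, which was too low to be tested, stood at 0.0977 and 0.0790 FPKM against 0.725, 0.568 and 0.550. Myc fell by 0.41 (adjusted p = 0.021) and Ctnnb1, the β-catenin gene, by 0.55 (adjusted p = 6e-04), neither reaching 2-fold.

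The called increases in this list were in secreted or membrane Wnt inhibitors. Dkk1, an antagonist of the LRP co-receptors, had 162 fragments in FAK-R454 (1.22 and 1.04 FPKM) and 0 in all 3 KMF libraries, which makes it at least 83.8-fold higher against a floor of 3 fragments over the KMF group. Apcdd1 measured 63.3 and 63.7 FPKM against 33.3, 32.0 and 27.6 FPKM (1.04 ± 0.09), and 0.96 without KMF replicate 3 and 0.67 after subtraction of chromosome medians. Among 24 ligands and receptors, 3 ligand genes were called higher and 1 lower at a median of -0.16. Wnt5a, a ligand known for signaling without β-catenin, measured 13.9 and 14.6 FPKM against 1.85, 1.75 and 2.08 FPKM (2.85 ± 0.09). Wnt5b and Wnt10a rose by 1.84 and 1.15. Wnt4, a ligand of Müllerian and ovarian development, measured 7.34 and 7.44 FPKM against 20.4, 20.8 and 20.8 FPKM (-1.47 ± 0.05). No receptor gene of the Fzd or Lrp families was called.

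**Figure D3:**
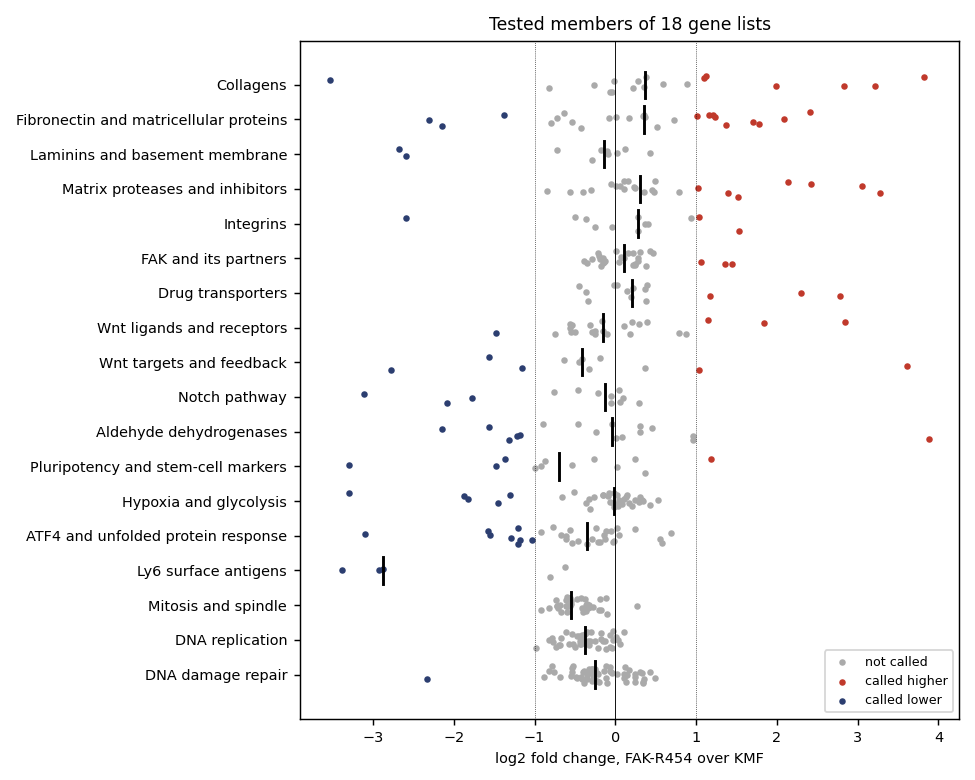
Log2 fold change, FAK-R454 over KMF, of each tested member of 18 gene lists, with 1 point per gene, a black bar at the list's median and dotted lines at 2-fold. Red and blue points are called higher and lower, and the mitosis list has its median at -0.56 and no called member.

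The Notch ligand genes Dll1 and Jag2 fell with a feedback gene, while the receptors' changes stayed below 2-fold. Of 12 pathway genes, 3 were called lower and none higher, at a median of -0.13. The ligand gene Dll1 measured 0.804 and 0.838 FPKM in FAK-R454 and 8.18, 8.78 and 6.75 FPKM in KMF (-3.11 ± 0.13, limma adjusted p = 2.5e-05). Jag2, also a ligand, measured 2.59 and 2.97 FPKM against 12.8, 12.6 and 11 FPKM (-2.09 ± 0.10), and Nrarp, a target that limits the pathway, 1.34 and 1.61 against 6.01, 5.59 and 4.38 FPKM (-1.78 ± 0.16). Every KMF value of these genes was higher than every FAK-R454 value. The lines likewise did not overlap in any of the 805 called genes and in 66.8% of all genes tested. Notch2 and Notch3 fell by 0.47 and 0.76 (adjusted p = 0.0032 and 0.00073), and the ligand gene Jag1 rose by 0.29 (adjusted p = 0.011). Hes1, the best known target, had a log2 fold change of -0.21 and an adjusted p of 0.092.

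Aldehyde dehydrogenases oxidise retinal and other aldehydes, and their activity is used as a mark of tumor stem cells. Of 17 genes, 5 were called lower and 1 higher, and the list's median was -0.04. Aldh1a1, the most abundant retinal dehydrogenase gene here, measured 34.2 and 35.0 FPKM in FAK-R454 and 101, 104 and 104 FPKM in KMF (-1.57 ± 0.05, limma adjusted p = 1.3e-05). Aldh1b1, a mitochondrial member, measured 0.987 and 0.879 FPKM against 4.39, 4.94 and 4.09 FPKM (-2.14 ± 0.12). Aldh1a7 fell by 1.21. All 3 were well apart between the lines. Aldh1a2 was low and variable, at 0.541 and 0.223 FPKM against 0.836, 1.15 and 1.14 FPKM (-1.32 ± 0.32, adjusted p = 0.018), and without FAK-R454 replicate 2 the change was -0.82 with an adjusted p of 0.079. A pseudocount of 1 took Aldh1a2 to -0.57 and Aldh1l2 to -0.71. Aldh1l1, a cytosolic folate enzyme, rose from 0.288, 0.300 and 0.292 FPKM to 5.85 and 5.62 FPKM, while its mitochondrial relative Aldh1l2 fell by 1.18. Aldh2, the most abundant member of the family at 713 to 856 FPKM, had a log2 fold change of 0.00.

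In a list of 12 tested stem-cell genes, 3 were called lower and 1 higher, and the median was -0.70. Klf5, a Krüppel-like factor of epithelial progenitors, measured 1.19 and 1.41 FPKM in FAK-R454 and 3.64, 3.73 and 3.21 FPKM in KMF (-1.37 ± 0.12, limma adjusted p = 3e-04), or -0.97 with a pseudocount of 1. Klf4 fell by 0.92, Fos by 0.99 and Amigo2 by 0.88, each with an adjusted p below 0.001 but short of 2-fold. Id3, an inhibitor of differentiation factors, rose from 22.7, 23.6 and 30.9 FPKM to 63.3 and 53.3 FPKM (1.18 ± 0.15). Cd44 rose by 0.37. Sox2 was at 0 in all 5 libraries and Prom1 at or below 0.00957 FPKM. Part of this list was taken from genes that the study singled out in these samples, so its direction is no independent evidence. The 3 called lower, Klf5, Wnt4 and Ndufa4l2, are all among those genes.

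Hypoxia and glycolysis genes had a median of -0.02 over 36 genes, of which 5 were called lower and none higher. Ndufa4l2, a mitochondrial protein gene induced by low oxygen, measured 39.9 and 43.2 FPKM in FAK-R454 and 420, 341 and 486 FPKM in KMF (-3.30 ± 0.14, limma adjusted p = 3.1e-05). Epas1, which encodes the oxygen-regulated factor HIF2α, measured 8.65 and 8.43 FPKM against 31.0, 34.4 and 26.5 FPKM (-1.82 ± 0.11). Vegfa measured 49.4 and 52.9 FPKM against 133, 113 and 186 FPKM (-1.46 ± 0.19). Bnip3 and the prolyl hydroxylase gene Egln3 fell by 1.88 and 1.30, and KMF replicate 3 held the highest Vegfa and Bnip3 values. The glycolytic genes Pgk1, Ldha, Slc2a1 and Hk2 had log2 fold changes of 0.00, -0.02, 0.02 and 0.14, and none passed the test.

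ATF4 drives the response to amino acid shortage and stress of the endoplasmic reticulum, with targets in serine synthesis, mitochondrial folate metabolism and glutathione breakdown. Of 33 genes of this response, 8 were called lower and none higher, at a median of -0.35. The list's median over KMF was -0.28 in FAK KO and -0.32 in FAK-WT. Chac1, which breaks down glutathione, measured 7.79 and 6.85 FPKM in FAK-R454 and 20.4, 21.7 and 22.6 FPKM in KMF (-1.55 ± 0.08, limma adjusted p = 4.7e-05). Atf5 measured 29.1 and 28.1 FPKM against 84.0, 80.9 and 93.4 FPKM (-1.58 ± 0.07). The serine and folate enzyme genes Phgdh, Shmt2 and Mthfd2 fell by 1.21 (0.94 after subtraction of chromosome medians), 1.03 and 1.29. Stc2, Trib3 and Aldh1l2 fell by 3.10, 1.2 and 1.18, and Aldh1l2 had -0.71 with a pseudocount of 1. Atf4 itself fell by 0.78 (adjusted p = 0.00088), and Asns, asparagine synthetase, by 0.92. The chaperone genes of the other branches, Hspa5 and Hsp90b1, had log2 fold changes of -0.15 and -0.01, while Pdia4 and Edem1 rose by 0.57 and 0.68.

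The composite element bound by ATF4 with C/EBP factors was searched as TGATGNAA on both strands in the 250 bases before the start of RefSeq transcripts (GRCm38.p6). It stood in 5 of the 30 matched members of the list, 16.7%, and in 1.88% of 8653 windows of genes tested. The 5 were Asns, Chac1, Herpud1, Nupr1 and Slc7a11, with log2 fold changes from -1.55 to -0.29, and all but Nupr1 passed the adjusted p alone. The window of Chac1, the only called gene among them, is shown with the element in capitals; it lies on the plus strand at chr2:119350992-119351241, and the capitals spell the element's reverse complement.
Chac1: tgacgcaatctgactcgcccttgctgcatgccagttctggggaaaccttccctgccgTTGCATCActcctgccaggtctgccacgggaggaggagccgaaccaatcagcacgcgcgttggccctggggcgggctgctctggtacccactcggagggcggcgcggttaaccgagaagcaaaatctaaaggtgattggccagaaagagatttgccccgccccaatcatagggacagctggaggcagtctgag

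Genes of mitosis and DNA replication were mostly lower by less than 2-fold, and those of the G1 phase went either way. Of 38 genes of mitosis and the spindle, 35 fell at an adjusted p below 0.05 and 1 rose, where 21.2% of all genes tested fell and 22.5% rose at any size of change. None reached 2-fold, and the median was -0.56. Ccna2, cyclin A, had the largest change, -0.93 (limma adjusted p = 7.5e-05). Plk1, a mitotic kinase, measured 21.1 and 18.3 FPKM in FAK-R454 and 31.4, 31.0 and 27.2 FPKM in KMF (-0.59 ± 0.09). Top2a, the topoisomerase of dividing cells, measured 30.4 and 29.4 FPKM against 44.4, 44.5 and 44.0 FPKM (-0.57 ± 0.05). Spc24, a kinetochore protein gene, measured 20.05 and 20.4 FPKM against 30.1, 29.8 and 29.4 FPKM (-0.56 ± 0.05). Every FAK-R454 value lay below every KMF value in 37 of the 38 genes, where the lines did not overlap, in either direction, in 66.8% of all genes tested. Pttg1, securin, was the gene that rose, by 0.27. Pkmyt1 fell by 0.73.

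Of 43 DNA replication genes, 25 were lower at an adjusted p below 0.05, with none higher and a median of -0.38. Prim1, the catalytic primase subunit, fell by 0.99, Mcm3 by 0.82 and Mcm5 by 0.78, the last from 27.3, 27.5 and 24.9 FPKM to 15.3 and 15.5 FPKM. Of 63 DNA repair genes, 23 were lower and 8 higher on the same measure, at a median of -0.26. Bard1, Recql4 and Exo1 fell by 0.89, 0.83 and 0.76, and Xpc rose by 0.49. Dscc1 had a log2 fold change of -0.29 and an adjusted p of 0.082. The only called gene was Rnf144b, a ubiquitin ligase gene induced by p53, which measured 0.472 and 0.517 FPKM against 2.82, 3.12 and 2.75 FPKM (-2.33 ± 0.12). The study singled out Rnf144b, Recql4, Dscc1, Spc24 and Pkmyt1 in these samples, so their direction is no independent evidence. Among 27 G1 cyclins, CDK inhibitors and p53 targets none was called, 7 were higher and 7 lower at an adjusted p below 0.05, and the median was -0.07. Cdkn1a, the p21 gene, fell by 0.47 (adjusted p = 0.00071).

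Promoters of mitotic genes are known for CCAAT boxes bound by NF-Y and for the CHR element read by the DREAM and MuvB complexes. In the same RefSeq windows, CCAAT was found on either strand in 23 of 30 matched mitosis genes, 76.7%, and in 36.9% of genes tested. It also stood in 20 of the 30 matched genes of the ATF4 list, 66.7%. Among the mitosis genes, the CHR letters TTTGAA or TTTAAA stood in 15 of 30, 50.0%, against 16.5% of genes tested. Both motifs stood in 13 of 30 against 6.43%. The median log2 fold change was -0.41 for the 15 genes with CHR letters and -0.60 for the 15 without. Windows of 4 genes that hold both are shown, to give the position of the letters in genes that fell below 2-fold; CCAAT or its complement ATTGG and the CHR letters or their complement are in capitals. Plk1 lies on the plus strand at chr7:122159185-122159434, Ccnb1 on the minus strand at chr13:100786487-100786736, Cdc20 on the minus strand at chr4:118437344-118437593 and Top2a on the minus strand at chr11:99024190-99024439. A match describes letters in the window and not a bound site.
Plk1: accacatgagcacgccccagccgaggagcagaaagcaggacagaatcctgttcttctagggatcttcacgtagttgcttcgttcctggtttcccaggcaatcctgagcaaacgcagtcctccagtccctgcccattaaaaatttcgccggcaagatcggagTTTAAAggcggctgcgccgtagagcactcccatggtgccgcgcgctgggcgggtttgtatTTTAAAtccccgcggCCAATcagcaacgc
Ccnb1: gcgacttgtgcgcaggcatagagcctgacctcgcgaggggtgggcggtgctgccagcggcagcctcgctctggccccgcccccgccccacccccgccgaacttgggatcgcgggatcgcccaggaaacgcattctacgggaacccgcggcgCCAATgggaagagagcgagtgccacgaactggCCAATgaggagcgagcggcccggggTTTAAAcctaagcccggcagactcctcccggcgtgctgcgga
Cdc20: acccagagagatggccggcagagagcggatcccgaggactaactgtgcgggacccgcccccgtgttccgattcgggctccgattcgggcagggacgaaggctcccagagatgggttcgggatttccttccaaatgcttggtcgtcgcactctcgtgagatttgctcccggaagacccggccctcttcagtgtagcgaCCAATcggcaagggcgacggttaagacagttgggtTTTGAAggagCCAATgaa
Top2a: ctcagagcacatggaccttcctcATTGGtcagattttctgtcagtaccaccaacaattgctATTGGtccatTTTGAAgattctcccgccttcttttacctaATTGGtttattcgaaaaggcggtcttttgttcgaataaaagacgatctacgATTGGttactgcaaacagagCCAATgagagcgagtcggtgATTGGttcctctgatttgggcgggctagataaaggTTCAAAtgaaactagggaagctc

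In Plk1, Ccnb1 and Cdc20 the CHR letters nearest to the start lay 29, 42 and 18 bases before it, counted at their first base, and in Top2a 23 bases before it. Ccnb1 (cyclin B) fell from 23.2, 22.6 and 23.3 FPKM to 17.7 and 17.1 FPKM (-0.41 ± 0.05), and Cdc20, an activator of the anaphase-promoting complex, from 45.9, 44.2 and 37.9 FPKM to 33.2 and 32.2 FPKM (-0.38 ± 0.09, limma adjusted p = 0.014).

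Surface antigens of the Ly6 family fell. Of 5 tested members all 5 were lower at an adjusted p below 0.05 and 3 were called. Ly6e measured 32.9 and 28.9 FPKM in FAK-R454 and 230, 238 and 213 FPKM in KMF (-2.87 ± 0.08, limma adjusted p = 1.1e-05). Ly6a, the Sca-1 antigen, measured 13.3 and 9.39 FPKM against 108, 111 and 137 FPKM (-3.39 ± 0.17), and Ly6c1 fell by 2.92. These genes lie in a cluster of similar copies on chromosome 15, so their separate values are uncertain. Among 20 genes of MHC class I and antigen processing, the immunoproteasome genes Psmb8 and Psmb9 were called lower, at -2.40 and -1.34 (-0.65 for Psmb9 with a pseudocount of 1), and Cd1d1, which presents lipids, higher at 2.33. B2m and H2-T22 had log2 fold changes of -0.02 and -0.12. Of 26 interferon-stimulated genes, 3 were called higher and 1 lower at a median of -0.04, and leaving out either FAK-R454 sample took Ifit2 past an adjusted p of 0.05 (0.061 and 0.063) and a pseudocount of 1 took its change to 0.77. The same pseudocount took Ifit3 from 1.49 to 0.68 and Gbp7 from -1.42 to -0.71, and Ifitm1, at 1.14, kept its call. Cd74, the invariant chain, measured 0.613 and 0.940 FPKM against 2.25, 2.46 and 1.85 FPKM (-1.40 ± 0.21, or -0.84 with a pseudocount of 1) and was the only called leukocyte marker of 3 tested.

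Abcb1a and Abcb1b, the mouse genes for the multidrug transporter P-glycoprotein, measured 3.70 and 4.06 FPKM and 1.83 and 1.88 FPKM in FAK-R454. Their KMF values were 0.399, 0.638 and 0.431 FPKM for Abcb1a and 0.246, 0.330 and 0.320 FPKM for Abcb1b. The log2 fold changes were 2.78 ± 0.20 and 2.30 ± 0.19 (limma adjusted p = 0.00015 and 0.00025), with the reservation that the copies are alike in sequence. Abcc3 rose by 1.17, or 0.63 with a pseudocount of 1, and of the 14 transporter and metal-handling genes tested 3 were called higher and none lower. Abcg2 and Abcc1 rose by 0.39 and 0.36, Abcc4 and Abcc5 fell by 0.34 and 0.37, and the copper transporter gene Slc31a1 had a log2 fold change of 0.15.

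Secreted growth factors formed a mixed group. Of 8 tested EGF receptor genes and ligands, Areg and Ereg were called higher, Areg at 20.5 and 19.2 FPKM in FAK-R454 against 7.09, 6.57 and 8.84 FPKM in KMF (1.40 ± 0.13), and Ereg at 1.07, or 0.78 with a pseudocount of 1. Fgf1, a fibroblast growth factor, measured 16.1 and 16.8 FPKM against 2.57, 2.72 and 2.67 FPKM (2.59 ± 0.07, limma adjusted p = 1.1e-05). Fgfr3, a receptor for it, went down, from 61.5, 61.0 and 57.6 FPKM to 15.7 and 16.2 FPKM (-1.90 ± 0.05). Igfbp3 and Igfbp2, carriers of insulin-like growth factors, rose by 3.24 and 1.94. Among 31 TGF-β and BMP genes, 4 were called higher and 4 lower. Gdf6 measured 14.6 and 14.6 FPKM against 1.47, 1.33 and 1.45 FPKM (3.28 ± 0.08), and Inhba and Bmp2 rose by 1.66 and 1.55. Bmp7 fell by 1.99, and so did antagonist genes of BMP and activin signaling, Grem1 by 1.89 and Fst by 1.05. The receptor gene Tgfbr3 fell by 1.16. Without FAK-R454 replicate 1 the Fst change was -0.92, and without KMF replicate 1 it was -0.96. A pseudocount of 1 took Fst to -0.72 and Grem1 to -0.94. The chemokine receptor gene Cxcr4 measured 4.75 and 4.60 FPKM against 0.839, 1.41 and 0.942 FPKM (2.07 ± 0.21), and Nt5e, the ecto-nucleotidase CD73, 3.97 and 4.62 against 0.637, 0.592 and 0.780 FPKM (2.52 ± 0.15). Of 18 chemokine and cytokine genes tested, 4 were called higher and 1 lower, Cxcl5 at -1.82, and the median was 0.20. Of 10 immune checkpoint and stress ligand genes, Nt5e among them, 2 were called higher at a median of -0.01. In that list Tnfrsf14 was the 1 gene called lower, at -2.01.

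Of 16 tested mesothelial and ovarian epithelial markers, 3 were called higher and 1 lower at a median of 0.23. Upk3b, an uroplakin gene of mesothelium, measured 31.1 and 32.0 FPKM in FAK-R454 and 8.16, 8.63 and 6.96 FPKM in KMF (1.99 ± 0.10). Lrrn4 measured 1.16 and 1.11 FPKM against 0.167, 0.0964 and 0.114 FPKM (2.47 ± 0.26), and with a pseudocount of 1 the change was 0.93. Amhr2, the receptor for anti-Müllerian hormone, rose by 1.04, and by 0.86 without KMF replicate 3 and 0.93 (adjusted p = 0.051) without FAK-R454 replicate 1, and by 0.92 after subtraction of chromosome medians. Of 9 genes tested in the keratin list, 2 were called higher and 2 lower at a median of 0.18. Krt15 rose by 3.28 and Lor by 1.06, or 0.94 with a pseudocount of 1, and Krt14 and Krt80 fell by 1.16 and 1.52. Dsp, desmoplakin, measured 1.85 and 1.78 FPKM against 6.16, 6.22 and 6.67 FPKM (-1.75 ± 0.08), and Elf3, an epithelial transcription factor gene, fell by 1.93. Of 15 genes tested in the list of cadherins and catenins, which holds Dsp, 2 were called lower and 1 higher at a median of -0.04. The higher one, Cldn3, measured 43.6 and 42.6 FPKM against 24.2, 27.5 and 14.5 FPKM. Its log2 fold change was 1.01 ± 0.25, and 0.98 with a pseudocount of 1. Cdh1, E-cadherin, was below the test's limit in both lines, at 0.0244 and 0.0214 FPKM against 0.746, 0.825 and 0.710.

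Guidance molecules first known from axons were among the calls. Of 41 axon guidance genes, 5 were called higher and 1 lower at a median of 0.14, and Sema3g, named above, is not a member of this list. Robo2, a receptor for Slit proteins, measured 1.95 and 2.08 FPKM in FAK-R454 and 0.114, 0.0970 and 0.157 FPKM in KMF (3.25 ± 0.23, limma adjusted p = 0.00014). The ligand genes split, since Slit3 measured 1.38 and 1.51 FPKM against 0.323, 0.466 and 0.341 FPKM (1.71 ± 0.20) and Slit2 measured 1.84 and 2.13 against 3.86, 4.68 and 4.31 FPKM (-1.07 ± 0.12). Without FAK-R454 replicate 1 the Slit2 change was -0.97. Sema5a, Plxnb1 and Plxna4 rose by 1.68, 1.14 and 1.06. With a pseudocount of 1 the changes were 0.83 for Slit3, -0.82 for Slit2, 0.94 for Plxnb1 and 0.97 for Plxna4, all short of 2-fold. Of 14 contractile genes 2 were called higher, among them Myh10, the heavy chain of nonmuscle myosin IIB, at 12.2 and 12.9 FPKM against 2.26, 2.56 and 2.85 FPKM (2.26 ± 0.11). Sdc3, a syndecan, rose by 1.92 and Gpc6, a glypican, fell by 1.03, or 0.89 without KMF replicate 3 and 0.67 with a pseudocount of 1.

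Of 22 targets of YAP and TAZ, Areg and Nt5e were called higher, and the best known of them, Cyr61 and Ctgf, had log2 fold changes of 0.00 and 0.17. Egr1, an immediate early factor gene, measured 6.86 and 6.88 FPKM in FAK-R454 and 14.1, 15.3 and 15.2 FPKM in KMF (-1.10 ± 0.06), and was the only call among 21 genes of its list. Dusp5, a phosphatase for ERK, measured 82.7 and 81.9 FPKM against 32.4, 32.8 and 26.1 FPKM (1.44 ± 0.10) and was the only call among 15 ERK feedback genes. Mycn fell by 1.21 as the only call among 11 genes of the Myc and Max network, and Pmaip1, the BH3 protein Noxa, fell by 1.41 as the only call among 24 apoptosis genes. Of 35 glutathione and antioxidant genes, Gstt1 fell by 2.61 and Gstt3 by 1.03, or 0.84 and 0.98 without FAK-R454 replicate 1 and without KMF replicate 1, and these are similar neighbouring copies. Of 15 prostaglandin and lysophosphatidic acid genes, 2 were called higher and 1 lower. Ptgds, prostaglandin D synthase, and Ptgfr rose by 1.66 and 1.65, while Lpar1, a receptor for lysophosphatidic acid, fell by 1.92. A pseudocount of 1 took Gstt3 to -0.66, Mycn to -0.84, Ptgfr to 0.90 and Lpar1 to -0.85, short of 2-fold in each. None of 30 cholesterol and fatty acid synthesis genes and none of 29 ribosome biogenesis genes was called, with medians of -0.05 and 0.00. Over all genes tested, 4.28% were called higher and 2.49% lower, so a single call in lists of this size is no result about the list.

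Some genes were high in FAK-R454 beside FAK KO and FAK-WT as well as beside KMF. The fits against FAK KO and FAK-WT called 2.74% and 1.44% of genes tested, and they share the FAK-R454 samples with the comparison described here, so they are not independent of it. The genes in this paragraph were chosen after their values were seen. Timp4 stood at 14.3 ± 1.82 FPKM in FAK-R454 (SD, n = 2), at 1.37 ± 0.0616 in KMF, 2.78 ± 0.562 in FAK KO and 1.21 ± 0.406 in FAK-WT (SD, n = 3 each). Its log2 fold change was 2.33 ± 0.16 over FAK KO (limma adjusted p = 0.00012) and 3.51 ± 0.28 over FAK-WT (adjusted p = 0.0036). Upk3b averaged 31.6 FPKM in FAK-R454, 4.03 in FAK KO and 7.46 in FAK-WT, with changes of 2.96 ± 0.16 and 2.09 ± 0.18 (adjusted p = 4.3e-05 and 0.0041). Eln averaged 4.16, 0.390 and 0.795 FPKM in the same order, with changes of 3.14 ± 0.22 and 2.27 ± 0.19 (adjusted p = 0.00013 and 0.0041). The low genes Dkk1, Slit3, Lrrn4 and Klf12 were higher in FAK-R454 than in FAK KO by 1.80 to 2.82 and than in FAK-WT by 1.16 to 1.61 (adjusted p from 0.0022 to 0.043). Over KMF, Klf12 was called at 1.39 and had 0.64 with a pseudocount of 1. Wnt4 was lower than in either, by 0.89 and 1.51 (adjusted p = 0.00026 and 0.00041).

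The next genes did not share 1 order of the lines. Abcb1a averaged 3.88 FPKM in FAK-R454, 4.83 in FAK KO and 4.41 in FAK-WT against 0.489 in KMF, and its differences from FAK KO and FAK-WT did not pass the test (adjusted p = 0.066 and 0.20). Ly6e averaged 30.9, 27.9 and 51.7 FPKM in these lines against 227 in KMF. Col1a1 averaged 10.1 FPKM in FAK-R454 and 9.12 in FAK-WT but 1.33 in FAK KO, with a change of 2.86 ± 0.21 over FAK KO (limma adjusted p = 0.00014) and of 0.17 ± 0.20 over FAK-WT (adjusted p = 0.63). Axin2 averaged 0.773 FPKM in FAK-R454, 0.822 in FAK KO and 2.05 in FAK-WT, all below the 5.88 of KMF, and 110 FPKM in β-catenin ΔGSK. In FAK-R454 it was lower than in FAK-WT by 1.30 ± 0.12 (adjusted p = 0.0058). Jag2 was lower than in FAK-WT by 1.45 ± 0.15 and higher than in FAK KO by 0.74 ± 0.15 (adjusted p = 0.0069 and 0.014). Ndufa4l2 averaged 41.6, 15.8 and 99.4 FPKM in the same order, with a spread of 71.4 FPKM (SD) in FAK-WT, and the change over FAK-WT was -1.02 ± 0.52 (adjusted p = 0.26). For the mitosis list the median log2 fold change over KMF was -0.56 in FAK-R454, -0.75 in FAK KO and -0.32 in FAK-WT, while β-catenin ΔGSK stood at 0.11, all set against the same KMF samples. Over KMF, the share of genes called in either direction was 8.01% for FAK KO, 5.93% for FAK-WT and 13.1% for β-catenin ΔGSK.

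**Figure D4:**
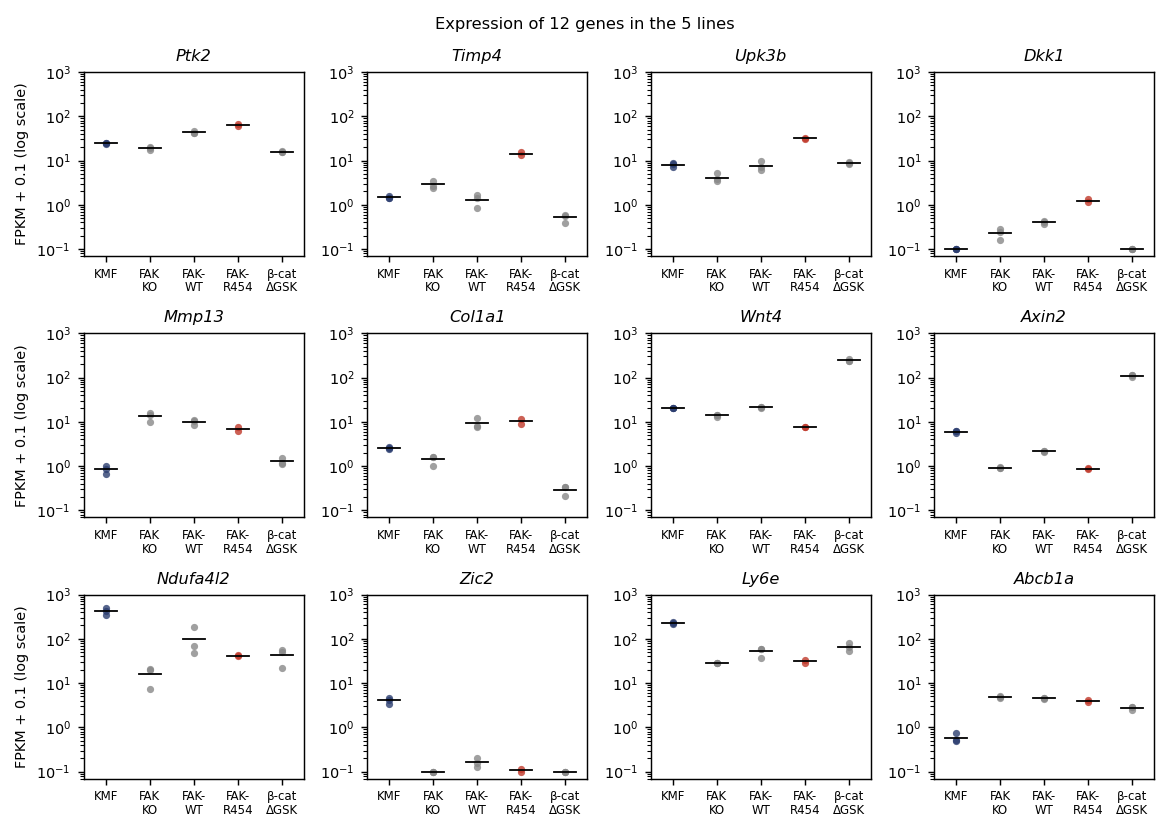
FPKM + 0.1 on a log scale for 12 genes in the 5 lines, with 1 point per library and a bar at the mean (n = 2 for FAK-R454, red, and n = 3 for the others). Timp4, Upk3b and Dkk1 are highest in FAK-R454, Abcb1a is low only in KMF among the lines shown, and Axin2 and Wnt4 are highest in β-catenin ΔGSK.

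Changes were spread unevenly over chromosomes. On chromosome 6, 57 of 581 genes tested, 9.81%, were called higher and 10, 1.72%, lower, and the median log2 fold change was 0.29. The median lay between 0.15 and 0.46 in each of the 15 intervals of 10 Mb along it. Chromosomes 18 and 19 had medians of 0.23 and 0.22, and chromosomes 3, 1 and 17 medians of -0.29, -0.24 and -0.20. Try4, Try5, Vopp1, Aldh1l1, Timp4, Wnt5b, Loxl3, Adamts9, Plxna4 and Hoxa10, all called higher, are on chromosome 6, and so are Npy and Mthfd2, called lower. After each chromosome's median was subtracted from its genes, Hoxa10 and Plxna4 no longer reached 2-fold, at 0.76 and 0.79. Hoxa10 also fell short without FAK-R454 replicate 2, at 0.97, and with a pseudocount of 1, at 0.67, and Plxna4 without KMF replicate 3, at 0.97. The corresponding chromosome 6 medians were 0.34 for FAK KO and 0.15 for both FAK-WT and β-catenin ΔGSK, over the same KMF samples. The 13 mitochondrial genes had a median of -0.19 and no call.

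**Figure D5:**
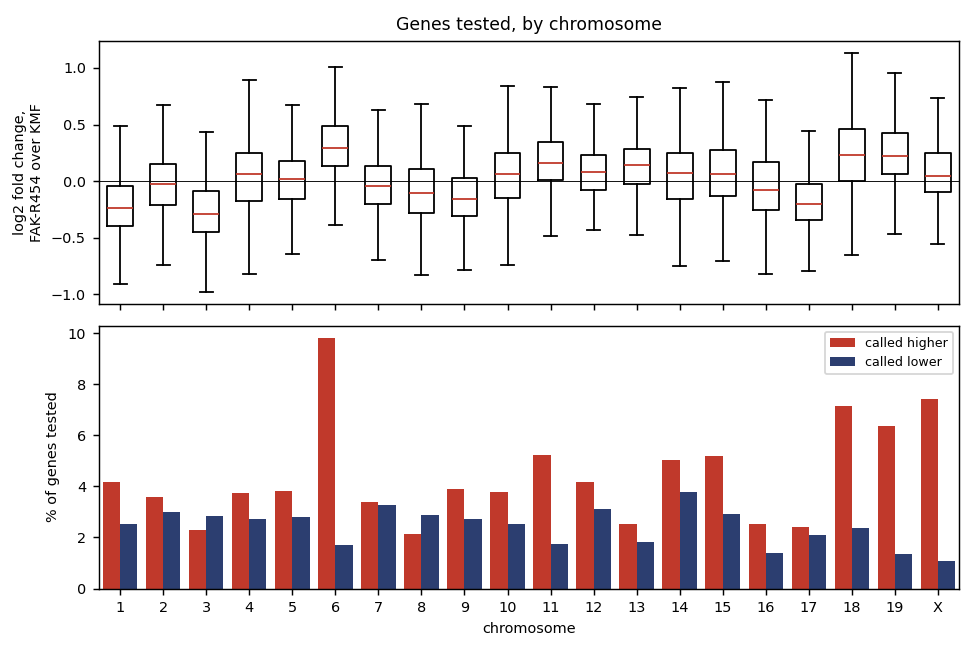
Log2 fold change of the genes tested on each chromosome (above; box from the lower to the upper quartile, red line at the median, whiskers to 1.5 times the box height) and the percentage of them called higher (red) or lower (blue) below. Chromosome 6 has the highest median, 0.29, and the largest share called higher, 9.81%.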

How the data were processed

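Poly-A mRNA of 14 tumorsphere samples was sequenced with a kit that does not mark strand, and the authors deposited 1 table of FPKM values for 35275 genes, with mm10 as the build. The submitters' processing notes name CASAVA 1.8, STAR 2.5 and DESeq2, whereas the study's methods name TopHat2 as the mapper. Every FPKM column of the table matched a sample. Log2(FPKM + 0.1) of the 2 FAK-R454 and 3 KMF samples was fitted with limma 3.58.1 in R 4.3.3 (eBayes with trend) over the 11896 genes with a mean above 1 FPKM in either line, and p-values were adjusted by Benjamini-Hochberg over all of them. A call needed an adjusted p below 0.05, 2-fold and a mean above 1 FPKM in the higher line. Because FPKM steps are whole fragments divided by length and depth, fragments were recovered, with 99.78% to 99.94% of values whole within 0.01. They gave 27772281 to 35289859 fragments per library and the counting intervals, which cover counting error only, and served a limma-voom alternative.

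The text names the 12 largest changes in each direction among genes whose symbol is not a clone, Rik, predicted-gene or pseudogene name, called members of 48 gene lists and genes the study singled out, except a few genes that are not reported here. Members and lists were chosen with earlier results of these data known. The fit over FAK-WT and the promoter motif search were added after seeing the data, and 8653 of the genes tested had a RefSeq promoter window, of which the first listed was read. The fit was tested on simulated data. Alternatives changed the pseudocount, filter, scaling, trend, samples in the fit, fold threshold, replicate block and chromosome centring, and left out each sample. Figures were drawn with matplotlib 3.10.9 in Python 3.11.15.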

Additional observations from a re-analysis of the deposited data

How the results depend on the processing

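The 509 higher and 296 lower calls became 309 and 190 with a pseudocount of 1, and 239 and 148 with a mean above 5 FPKM required. At a log2 fold threshold of 0.5 they were 1146 and 1013, and with none 2672 and 2517. The other alternatives, limma-voom on recovered fragments among them, gave 462 to 532 higher and 293 to 320 lower. Leaving out 1 sample gave 490 to 518 higher and 297 to 320 lower, and without 1 FAK-R454 sample the lone one was assumed to vary like KMF. Of 159 called genes, named or in the lists, none reversed. Of all 159, 112 kept their call under every alternative that tested them. Of the 96 tested under every alternative 83 kept their call under each, and 63 were too low to be tested at a mean above 5 FPKM. With a pseudocount of 1, 41 of the 159 fell short of 2-fold, among them Klf5 (-0.97), Slit3 (0.83), Abcc3 (0.63), Lrrn4 (0.93) and Lpar1 (-0.85). Centring each chromosome on its median took Phgdh to -0.94, Itga5 to 0.93 and Apcdd1 to 0.67. Of 719 list medians under the alternatives, 49 moved by more than 0.1. For 2 lists with a median beyond 0.2 the sign changed under an alternative.

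Replicate numbers are not stated to mark shared cultures. Deviations correlated at -0.02 for number 1 and 0.13 for number 2, over genes, and KMF replicate 3 has no partner. The deviations of the 2 FAK-R454 samples mirror each other, so these values cannot exclude pairing. With a replicate block 501 genes were called higher, 471 of them shared with the unblocked fit, and 318 lower, 287 of them shared. Of the 169 genes named or called in the lists, 160 had the same result with the block and 9 a weaker one. Low genes near 1 FPKM limit the precision, since the pseudocount shrinks their changes.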
